A study of Pseudozyma hubeiensis with 12 samples.

Results

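Genes that recover nitrogen from purines, allantoate and urea were followed in the basidiomycete yeast Pseudozyma hubeiensis strain BOT-O. They are the purine permease PHBOTO_003947, the urate oxidase PHBOTO_000156, the putative allantoate permease dal5_3 and the putative urea transporter dur3_2. These are 4 of the 6689 loci in the deposited table. They were chosen on their levels in these same libraries, so their levels and fold changes are given as a description and without a test. The tests below concern other genes matched to the same pathway by name, some of which act outside it. All 4 genes passed the filter on low counts, with 5805 loci tested in all.

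Purines are a nitrogen source from outside and inside the cell. Permeases bring in purine bases, deaminases and xanthine dehydrogenase convert them to urate, and urate oxidase begins the opening of the ring that leads to allantoin and allantoate. Allantoicase splits allantoate, the end products are glyoxylate and urea, and urea is turned into ammonia by urease or by urea amidolyase. In Saccharomyces cerevisiae, where these genes are best known, the allantoate permease DAL5 and the urea transporter DUR3 are held low while a preferred nitrogen source such as ammonium is present. That yeast has no urate oxidase of its own.

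The study measured mRNA by poly-A RNA-seq in 4 groups of 3 biological replicates, lettered A, B and C. All cultures were of the one strain in a yeast nitrogen base medium whose only added nitrogen was ammonium sulfate, supplied at 80 g of carbon per g of nitrogen, with no purine or urea named in the labels. The groups were exponential growth on glucose, exponential growth on xylose, nitrogen starvation on glucose and nitrogen starvation on xylose. Exponential libraries are time point 1 and starved libraries time point 2, so starvation and culture age cannot be told apart. The 12 libraries held 15130232 to 32374467 counts. RNA came from whole cultures, so fewer cells expressing a gene and less of its RNA per cell cannot be told apart. Levels are given as CPM, the number of counts in each 1e+06 of a TMM-scaled library. They are not divided by gene length and compare libraries, not genes.

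The purine permease PHBOTO_003947 takes up purine bases by its annotation. In exponential growth it stood at 16.7, 16.0 and 18.8 CPM in replicates A, B and C on glucose and at 19.4, 20.5 and 23.8 CPM on xylose. In starvation it stood at 10002, 12702 and 11882 CPM on glucose and at 10815, 8116 and 9061 CPM on xylose. Every starved library lay far above every exponential one, and the starved libraries of the sugars overlapped. The group means were 17.2 ± 1.42 and 11529 ± 1384 CPM on glucose (SD, n = 3), a log2 difference of 9.39 ± 0.18 (approximate SE) or 673-fold. On xylose they were 21.2 ± 2.27 and 9331 ± 1369 CPM (SD, n = 3), a log2 difference of 8.78 ± 0.17 or 439.6-fold. The exponential xylose libraries all lay above the exponential glucose libraries, by 0.31 ± 0.13 on the log2 scale.

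Urate oxidase PHBOTO_000156 oxidises urate, the step after xanthine dehydrogenase. It was measured at 123, 135 and 116 CPM in exponential growth on glucose and at 65.7, 75.3 and 83.4 CPM on xylose. Starved libraries held 12496, 16490.3 and 17024 CPM on glucose and 18003, 15098 and 16829.8 CPM on xylose. As for the permease, the growth phases did not overlap on either sugar. The log2 difference between phases was 6.94 ± 0.16 on glucose (123-fold, from 125 ± 9.81 to 15337 ± 2475 CPM, SD, n = 3) and 7.80 ± 0.17 on xylose (222-fold, from 74.8 ± 8.85 to 16644 ± 1461 CPM, SD, n = 3). Its level in exponential growth was lower on xylose than on glucose, by 1.67-fold and with no overlap, while the starved levels overlapped. The log2 difference between the starved sugars was 0.12 ± 0.13 and became -0.01 without starved glucose replicate A, so no direction is read from it.

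The gene dal5_3 (PHBOTO_000794) is annotated as a putative copy of the allantoate permease, a transporter that carries allantoate in Saccharomyces cerevisiae. It was low in exponential growth, at 0.765, 0.94 and 1.51 CPM on glucose and 2.03, 1.51 and 1.34 CPM on xylose. In starvation it reached 1506, 1268 and 1414 CPM on glucose and 1162, 1143 and 1274 CPM on xylose. The phases did not overlap and the sugars overlapped within both phases. The log2 difference between phases was 10.40 ± 0.20 on glucose (1352-fold) and 9.51 ± 0.19 on xylose (729-fold). These values rest on few reads in exponential growth, 86 counts in all on glucose and 153 on xylose. Over the alternative fits the difference ran from 10.21 to 10.66 on glucose and from 9.39 to 9.7 on xylose. Group means were 1.07 ± 0.389 and 1396 ± 120.1 CPM on glucose and 1.63 ± 0.356 and 1193 ± 71.0 CPM on xylose (SD, n = 3).

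The gene dur3_2 (PHBOTO_002616), annotated as a putative urea active transporter, had another pattern. It was high in exponential growth on xylose only, at 413, 497 and 659.9 CPM, or 13238, 15462 and 20123 counts. Exponential growth on glucose gave 1.80, 1.5 and 3.46 CPM, or 54, 51 and 71 counts. Starved libraries held 1, 6 and 11 counts on glucose (0.0639, 0.363 and 0.693 CPM) and 2, 9 and 19 counts on xylose (0.122, 0.410 and 0.771 CPM). The exponential xylose libraries thus stood above all 9 others, the exponential glucose libraries above all 6 starved ones, and the starved libraries of both sugars overlapped. In exponential growth the level on xylose was 245-fold that on glucose, a log2 difference of 7.94 ± 0.30 (523 ± 126 against 2.25 ± 1.06 CPM, SD, n = 3). Starved libraries were 1095-fold lower than exponential ones on xylose (log2 difference -10.10 ± 0.36) and 5.63-fold lower on glucose (-2.49 ± 0.58). These values rest on few reads in starvation. Without starved glucose replicate C the glucose difference was -3.26, and without starved xylose replicate C the xylose difference was -10.81. Between the starved sugars the log2 difference of 0.33 ± 0.81 ran from -0.38 without starved xylose replicate C to 1.11 without starved glucose replicate C, and it was -0.15 without starved glucose replicate A.

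**Figure D1:**
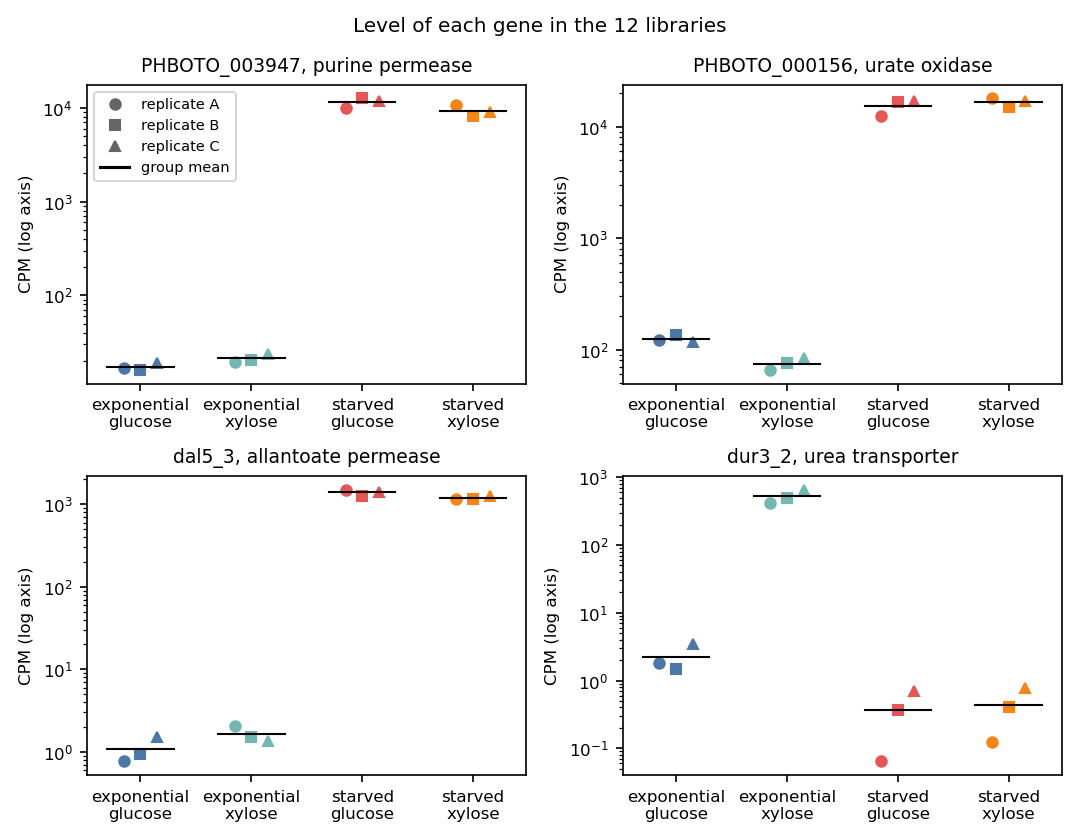
CPM (log axes, 1 range per panel) of the 4 genes in the 12 libraries by group, with replicate letters as symbols and group means as bars. PHBOTO_003947, PHBOTO_000156 and dal5_3 are high in all 6 starved libraries, while dur3_2 is high in the 3 exponential xylose libraries at 413 to 659.9 CPM.

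The 4 genes together held 0.0153 ± 0.00074% of all counts in exponential growth on glucose and 0.0655 ± 0.015% on xylose (SD, n = 3). In starvation they held 2.79 ± 0.266% on glucose and 2.46 ± 0.181% on xylose (SD, n = 3). These shares pool opposite patterns. In exponential growth on xylose dur3_2 gave 523 of the 621 summed CPM, and in starvation it gave 0.373 CPM on glucose and 0.434 on xylose. The order of the groups differed by gene. From high to low it was starved glucose, starved xylose, exponential xylose and exponential glucose for PHBOTO_003947 and dal5_3, with the starved groups overlapping for both and the exponential groups overlapping for dal5_3. It was starved xylose, starved glucose, exponential glucose and exponential xylose for PHBOTO_000156, again with overlap of the starved groups. In these comparisons 40.1% of all tested genes were called higher and 41.1% lower in starvation on glucose, and 40.6% higher and 40.6% lower on xylose. Groups did not overlap for 81.5% of genes on glucose and 85.0% on xylose, so the direction and the separation of these 4 genes are common in the table. No further reading is made of them because the values chose the genes. The log2 fold changes in the authors' deposited table differed from those given here by at most 0.12, for dur3_2 between the starved sugars.

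The response of each gene also differed in size between the sugars. On the log2 scale, the starvation difference on xylose minus that on glucose was -0.61 ± 0.18 for PHBOTO_003947, 0.86 ± 0.18 for PHBOTO_000156 and -0.89 ± 0.26 for dal5_3. For dur3_2 it was -7.60 ± 1.20, which is the difference of 0.33 between the starved sugars less that of 7.94 between the exponential ones. Over the alternative fits the value ran from -1.15 to -0.7 for dal5_3 and from -8.32 to -6.84 for dur3_2. Across all genes, 21.7% were called with a positive and 16.5% with a negative difference of this kind.

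The other genes of the pathway were taken from search patterns on product and gene names, which matched 30 further loci, 29 of them tested. In starvation on glucose 25 of the 29 rose and 3 fell, with a median log2 fold change of 1.07 beside -0.02 over all tested genes. On xylose 22 rose and 3 fell, with a median of 1.62 beside 0.00. The shares of all genes called in each direction were those given above. The search had also caught the tRNA deaminase subunits tad1 and tad2 and the salvage enzyme xpt1, which do not break down free purines. Also on the list are the uridine nucleosidases urh1 and urh1_2 and the uracil permease fur4, which act on pyrimidines by annotation. The glucose median was the value of tad2 and the xylose median that of urh1_2. Counts and medians are thus those of the list, not of purine genes alone. With each library left out in turn, 26 of the 28 calls on glucose and 21 of the 25 on xylose passed every time. The others were dal5_2 and dur12 on glucose and dal5_2, dur3_3, PHBOTO_001179 and dur12_3 on xylose. PHBOTO_001179 missed the threshold on xylose without starved xylose replicate A (edgeR adjusted p = 0.0606). The copy dur12_3, at 0.23 ± 0.09 on xylose, missed it without exponential or starved xylose replicate C (edgeR adjusted p = 0.0837 and 0.143).

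**Figure D2:**
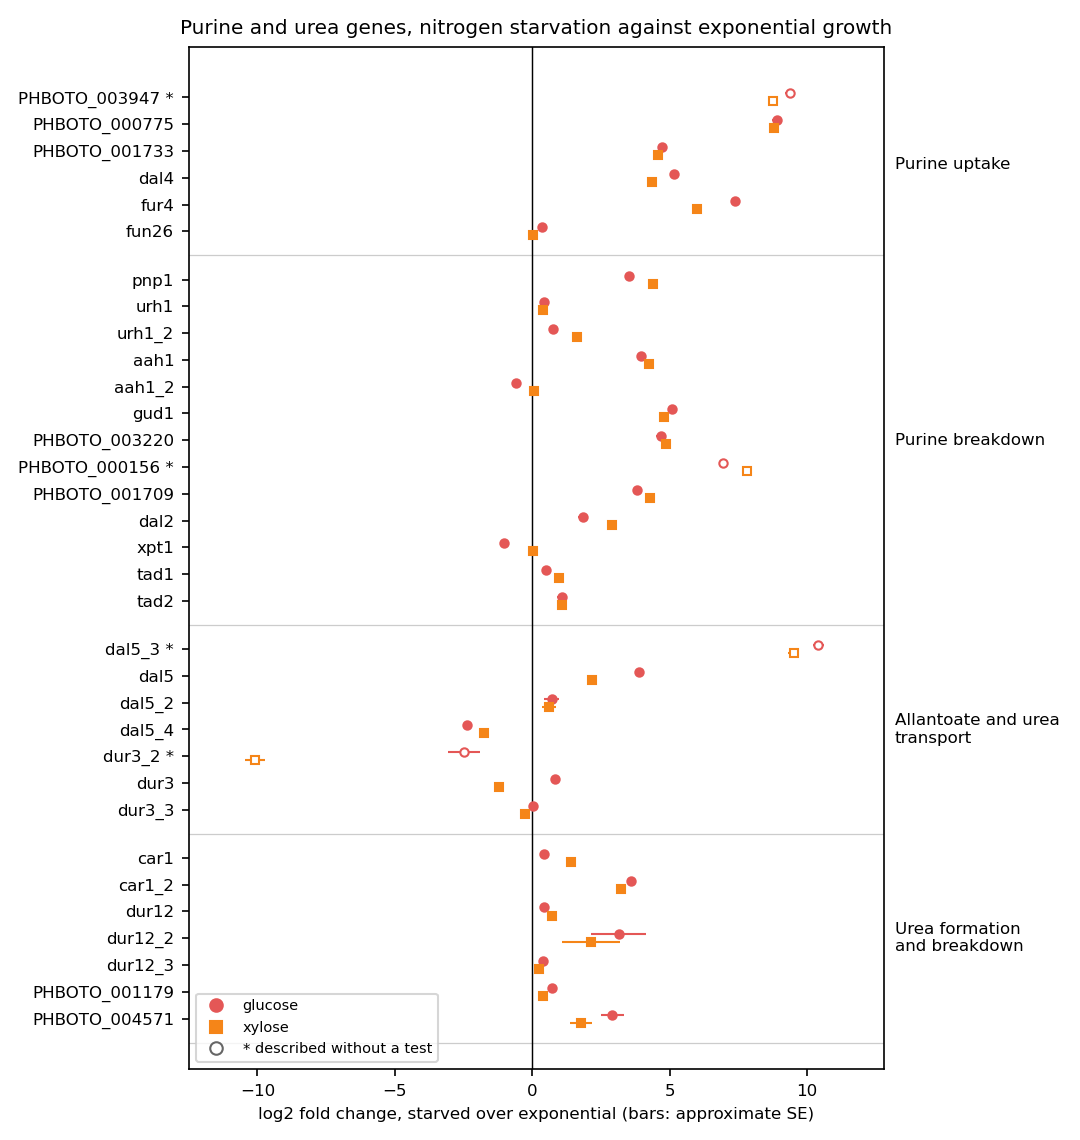
Log2 fold change of starved over exponential cultures on glucose (circles) and xylose (squares) for the named purine and urea genes, grouped by role, with approximate SE as bars. Open symbols mark the 4 genes described without a test, and dur3_2 lies at -10.10 on xylose while most other genes lie to the right of 0.

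Genes on the purine uptake list rose with few exceptions. Of 5 other genes on it, 5 rose on glucose (median log2 fold change 5.15) and 4 on xylose (median 4.57). Only PHBOTO_000775 and PHBOTO_001733 are annotated for purines, the others for allantoin (dal4), uracil (fur4) and nucleosides (fun26). The glucose median is the value of dal4. A second locus annotated as a purine permease, PHBOTO_000775, rose from 6.05 ± 0.466 to 2911 ± 418 CPM on glucose (SD, n = 3; log2 fold change 8.91 ± 0.18, edgeR quasi-likelihood adjusted p = 4.26e-16). On xylose it rose from 6.40 ± 1.33 to 2842 ± 121 CPM (SD, n = 3; 8.79 ± 0.18, edgeR adjusted p = 7.51e-16). The purine transporter PHBOTO_001733 rose from 518 ± 24.4 to 13638 ± 1809.5 CPM on glucose (SD, n = 3), by 4.72 ± 0.15 on the log2 scale (edgeR adjusted p = 8.14e-14). Its rise on xylose was 4.57 ± 0.15 (edgeR adjusted p = 1.47e-13). The allantoin permease dal4 rose by 5.15 ± 0.09 and 4.37 ± 0.09 on the log2 scale (edgeR adjusted p = 9.5e-17 and 5.41e-16). The uracil permease fur4, whose family also holds purine carriers, rose by 7.39 ± 0.15 and 6.01 ± 0.14 (edgeR adjusted p = 6.14e-16 and 3.06e-15). The nucleoside transporter fun26 rose on glucose by 0.37 ± 0.09 (edgeR adjusted p = 0.00171) and was at 0.01 ± 0.09 on xylose (edgeR adjusted p = 0.892).

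The steps from purine base to urate rose strongly. Guanine deaminase gud1, which makes xanthine, rose from 203 ± 12.1 to 6861 ± 1184 CPM on glucose and from 194 ± 14.3 to 5392 ± 575 CPM on xylose (SD, n = 3). These are log2 fold changes of 5.08 ± 0.14 and 4.80 ± 0.14 (edgeR adjusted p = 1.96e-14 and 4.75e-14). Xanthine dehydrogenase PHBOTO_003220, which produces urate, rose from 159 ± 10.6 to 4085 ± 635 CPM on glucose and from 139.9 ± 19.3 to 4105 ± 842 CPM on xylose (SD, n = 3). The log2 fold changes were 4.69 ± 0.17 and 4.87 ± 0.17 (edgeR adjusted p = 4.07e-13 and 3.66e-13). The adenine deaminase aah1 rose by 3.95 ± 0.12 and 4.24 ± 0.13 (edgeR adjusted p = 5.76e-14 and 4.24e-14), and the purine nucleoside phosphorylase pnp1, which frees bases from nucleosides, by 3.52 ± 0.15 and 4.40 ± 0.16 (edgeR adjusted p = 2.33e-12 and 3.45e-13). The copy aah1_2 fell on glucose by 0.59 (edgeR adjusted p = 0.000116) and stood at 0.07 ± 0.11 on xylose (edgeR adjusted p = 0.531).

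The steps after urate rose as well, by less for allantoicase. PHBOTO_001709, annotated as 5-hydroxyisourate hydrolase, which acts on the product of urate oxidase, rose from 43.4 ± 4.37 to 609 ± 24.3 CPM on glucose and from 26.0 ± 3.13 to 504 ± 34.6 CPM on xylose (SD, n = 3). These are log2 fold changes of 3.81 ± 0.11 and 4.27 ± 0.11 (edgeR adjusted p = 2.05e-14 and 1.03e-14). The allantoicase dal2 rose from 140.2 ± 6.44 to 501 ± 166 CPM on glucose and from 105 ± 1.18 to 785 ± 82.9 CPM on xylose (SD, n = 3). The log2 fold changes were 1.84 ± 0.18 and 2.90 ± 0.18 (edgeR adjusted p = 6.72e-08 and 3.64e-10). Over the 13 other loci matched by the breakdown search, 11 rose and 2 fell on glucose (median log2 fold change 1.84), and 11 rose and none fell on xylose (median 2.90), where the remaining 2 were xpt1 and aah1_2. The 11 are the 6 enzymes named so far (gud1, PHBOTO_003220, aah1, pnp1, PHBOTO_001709 and dal2), the permease dal4, already counted under uptake, the uridine nucleosidases urh1 and urh1_2, which act on a pyrimidine nucleoside by their annotation, and the tRNA deaminase subunits tad1 and tad2. The 2 that fell on glucose were aah1_2 and the xanthine phosphoribosyltransferase xpt1, which fell by 1.02 (edgeR adjusted p = 5.91e-07). Allantoinase, ureidoglycolate lyase and the catalytic subunit of urease matched no product name searched and are not analysed here.

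Purine synthesis genes went the other way. Of 12 tested genes on the synthesis list, which also holds the salvage enzyme apt1, 12 fell on glucose (median log2 fold change -1.62) and 11 on xylose (median -1.54), and none rose. The bifunctional synthesis enzyme ade17 fell from 306 ± 24.0 to 67.4 ± 8.74 CPM on glucose (SD, n = 3), a log2 fold change of -2.18 ± 0.11 (edgeR adjusted p = 1.35e-11). On xylose its log2 fold change was -1.85 ± 0.11 (edgeR adjusted p = 9.16e-11). The early synthesis gene ade5,7 fell, with log2 fold changes of -2.05 and -1.70 (edgeR adjusted p = 6.66e-12 and 6.07e-11), the adenylosuccinate lyase ade13 fell, with -1.88 and -1.67 (edgeR adjusted p = 1.06e-11 and 4.43e-11) and the IMP dehydrogenase imd4 fell, with -1.88 and -1.86 (edgeR adjusted p = 4.02e-08 and 4.65e-08). The exception on xylose was the adenine salvage enzyme apt1, at 0.29 ± 0.14 (edgeR adjusted p = 0.0684). It fell on glucose by 0.44 (edgeR adjusted p = 0.00925), a call lost without starved glucose replicate B (edgeR adjusted p = 0.0526).

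**Figure D3:**
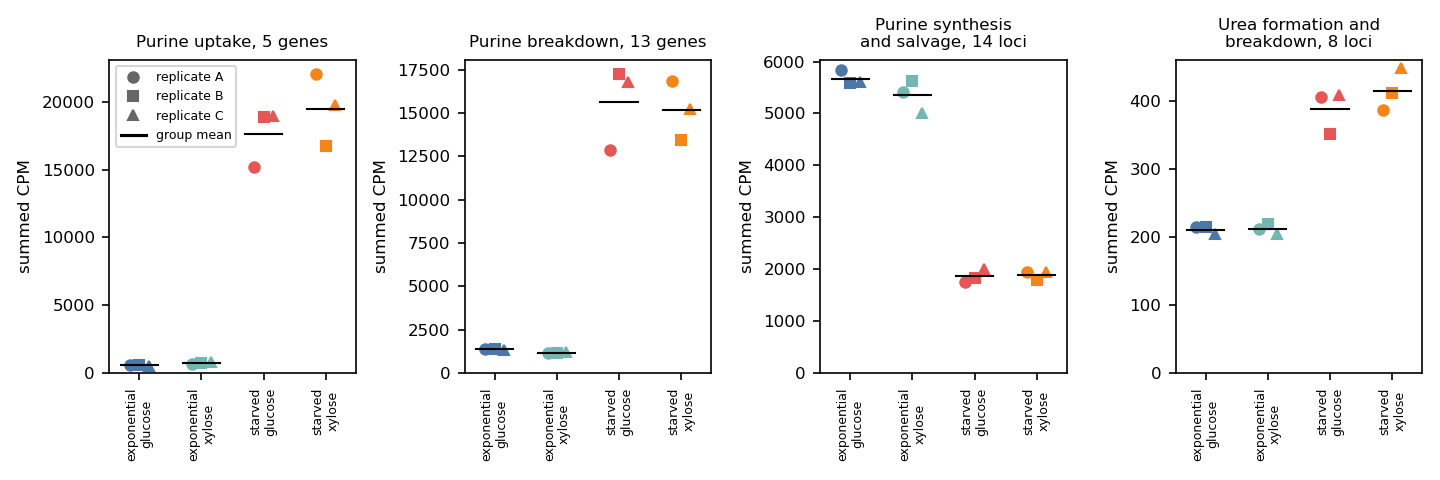
Summed CPM of the genes on each list in the 12 libraries, the 4 described genes left out, with a bar at the group mean and axes from 0. Uptake and breakdown stand higher and synthesis lower in the 6 starved libraries, and the urea breakdown sums stay below 500 CPM.

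Summed over the list, uptake genes went from 577 ± 26.2 to 17670.0 ± 2151 CPM on glucose and from 736 ± 79.8 to 19509 ± 2645 CPM on xylose (SD, n = 3). Breakdown genes went from 1365 ± 16.2 to 15653 ± 2407 CPM and from 1174 ± 15.6 to 15180.2 ± 1715 CPM (SD, n = 3). The synthesis list, apt1 included, stood at 5672 ± 135 and 1865 ± 133 CPM on glucose and at 5348 ± 307 and 1892 ± 80.9 CPM on xylose (SD, n = 3). In each of these lists the starved libraries lay apart from the exponential ones on both sugars. The sums are not evenly spread over the genes. PHBOTO_001733 alone gave 518 and 13638 CPM of the uptake sums on glucose, and gud1 gave 203 and 6861 CPM of the breakdown sums. The permease dal4 counts in both lists, and the breakdown sum includes xpt1, tad1 and tad2.

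Urea formation and breakdown moved less. Of 7 tested loci, 7 rose on glucose (median log2 fold change 0.73) and 6 on xylose (median 1.40). The list sum went from 211 ± 5.53 to 389 ± 31.5 CPM on glucose and from 212 ± 7.2 to 415 ± 31.3 CPM on xylose (SD, n = 3). The arginase copy car1_2, which releases urea from arginine, rose by 3.59 ± 0.11 and 3.24 ± 0.10 (edgeR adjusted p = 3.47e-14 and 1.24e-13), and car1 by 0.42 ± 0.11 and 1.40 ± 0.11 (edgeR adjusted p = 0.0026 and 6.28e-09). The urea amidolyase dur12, which splits urea with ATP in Saccharomyces cerevisiae, rose by 0.73 ± 0.17 on xylose (edgeR adjusted p = 0.000938). Its rise on glucose, 0.44 ± 0.17 (edgeR adjusted p = 0.0287), missed the threshold without any 1 of the exponential glucose libraries or without starved glucose replicate A or C, with log2 values from 0.33 to 0.46 and edgeR adjusted p from 0.0547 to 0.108. The copy dur12_3 rose by 0.38 ± 0.09 on glucose (edgeR adjusted p = 0.00072). The urease accessory proteins UreF (PHBOTO_001179) and UreD (PHBOTO_004571), which help insert nickel into urease, rose on glucose by 0.73 ± 0.13 and 2.92 ± 0.41 (edgeR adjusted p = 7.93e-05 and 6.6e-06). The UreD locus had only 40 counts over the exponential glucose libraries and 170 over the starved ones. The copy dur12_2 had 7 counts over 3 exponential glucose libraries and 37 over 3 starved ones, of which replicate B gave 0, so its call is not read further.

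The other copies of the allantoate and urea transporters did not share one pattern. Reads that match several loci may be shared between copies named with a suffix, because the counting rule is not given in the sources used here, and the separate levels are uncertain to that extent. The same limit holds for PHBOTO_003947 and PHBOTO_000775, which are both named purine permease. Of the 5 other allantoate and urea transporter copies, 3 rose and 1 fell on glucose (median log2 fold change 0.71). On xylose 2 rose and 3 fell (median -0.26), beside the shares for all genes given above. The named copy dal5 rose from 36.6 ± 0.714 to 546 ± 46.3 CPM on glucose and from 131 ± 8.64 to 593 ± 25.4 CPM on xylose (SD, n = 3). Its log2 fold changes were 3.90 ± 0.09 and 2.18 ± 0.09 (edgeR adjusted p = 2.11e-15 and 1.01e-12). The copy dal5_4 fell from 604 ± 48.5 to 115 ± 6.87 CPM on glucose and from 446 ± 37.6 to 134 ± 2.43 CPM on xylose (SD, n = 3), with log2 fold changes of -2.39 and -1.74 (edgeR adjusted p = 6.4e-13 and 2.39e-11). The copy dal5_2 stayed between 3.36 and 7.89 CPM in all group means, with log2 fold changes of 0.71 ± 0.27 and 0.62 ± 0.26 (edgeR adjusted p = 0.0241 and 0.0364) and its calls were not stable. On glucose the adjusted p was 0.114 without exponential replicate A and 0.139 without starved replicate B, and on xylose it ran from 0.0896 to 0.122 without exponential replicate A or B or starved replicate A or C (edgeR). With dal5_3 left out, the summed copies of both transporters stood at 920 ± 47.2 and 959 ± 64.5 CPM on glucose and 1036 ± 32.7 and 1076 ± 35.7 CPM on xylose before and in starvation (SD, n = 3; dur3_2 also left out), and these ranges overlap.

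The urea transporter dur3 shared with dur3_2 a higher level on xylose in exponential growth, at 90.4 ± 19.5 CPM against 18.7 ± 1.06 CPM on glucose (SD, n = 3; log2 fold change 2.27 ± 0.17, edgeR adjusted p = 4.79e-08). In starvation it rose to 33.5 ± 6.03 CPM on glucose and fell to 38.7 ± 5.85 CPM on xylose (SD, n = 3), by 0.84 ± 0.17 and -1.22 ± 0.16 on the log2 scale (edgeR adjusted p = 0.000209 and 2.53e-06). Of the 7 copies dur3_3 had the most even group means, between 258 ± 10.1 and 364 ± 13.8 CPM (SD, n = 3). It was higher on xylose in exponential growth by 0.50 ± 0.09 (edgeR adjusted p = 0.000566) and stood at 0.01 ± 0.09 in starvation on glucose (edgeR adjusted p = 0.894). Its fall of -0.26 ± 0.09 in starvation on xylose (edgeR adjusted p = 0.0109) missed the threshold without starved xylose replicate B or C (edgeR adjusted p = 0.0526 and 0.0522).

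**Figure D4:**
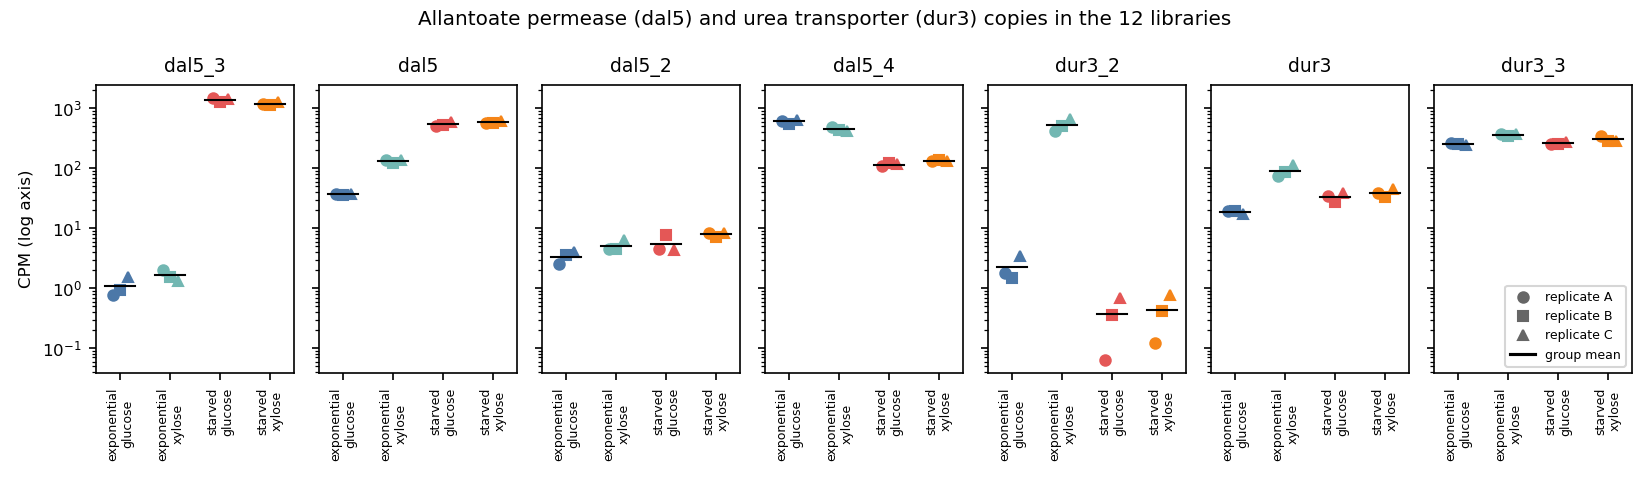
CPM (log axis) of the 4 allantoate permease copies and the 3 urea transporter copies in the 12 libraries, with replicate letters as symbols and group means as bars. In exponential growth dur3_2 and dur3 lie higher on xylose than on glucose, dal5_4 lies higher in exponential growth, and dur3_3 stays between about 258 and 364 CPM in all group means.

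Between the sugars, 10 of the 29 other pathway genes differed in each growth phase. In exponential growth 6 of 29 were higher on xylose and 4 lower (median log2 fold change -0.01 beside -0.03 over all genes), where 9.94% of all genes were higher and 10.8% lower and 53.2% did not overlap. In starvation 6 were higher and 4 lower (median 0.11 beside 0.00), where 23.0% of all genes were higher and 19.2% lower and 44.4% did not overlap. Beside dur3 and dur3_3, the genes higher on exponential xylose included dal5 by 1.84 ± 0.09 (edgeR adjusted p = 1.71e-10), fur4 by 0.84 ± 0.16 (edgeR adjusted p = 0.00131) and dal4 by 0.63 ± 0.08 (edgeR adjusted p = 2.23e-05). Like urate oxidase, 5-hydroxyisourate hydrolase PHBOTO_001709 was lower on exponential xylose, by a log2 fold change of -0.74 ± 0.10 (edgeR adjusted p = 5.79e-05). The arginase car1 was also lower, at -0.48 ± 0.11 (edgeR adjusted p = 0.00509). In starvation the largest were urh1_2, a uridine nucleosidase, at 0.86 ± 0.12 (edgeR adjusted p = 3.25e-05), xpt1 at 0.80 ± 0.12 (edgeR adjusted p = 7.86e-05) and dal2 at 0.65 ± 0.17 (edgeR adjusted p = 0.00689). The 4 genes lower on exponential xylose became 7 without starved glucose replicate A and 9 in a fit of the exponential groups alone. The 4 lower on starved xylose became 1 in a fit of the starved groups alone, 2 without starved glucose replicate A or C and 1 without starved xylose replicate B. Over all genes the 1203 calls between the exponential sugars became 791 without exponential glucose replicate B.

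The starvation response differed between the sugars for 14 of the 29 genes, 9 with a positive and 5 with a negative difference of xylose minus glucose (median -0.10 beside 0.03 over all genes). Among uptake genes 3 of 5 were more positive on glucose. The allantoate permease dal5 had a difference of -1.72 ± 0.12 (edgeR adjusted p = 3.82e-08), in the same direction as the description of dal5_3. The copy dal5_4 went the other way, at 0.66 ± 0.12 (edgeR adjusted p = 0.000675), and dal5_2 was not called. For dal2 the difference was 1.06 ± 0.24 (edgeR adjusted p = 0.00307), in the direction of urate oxidase. Xanthine dehydrogenase PHBOTO_003220, at 0.19 ± 0.21, and gud1, at -0.28 ± 0.17, were not called (edgeR adjusted p = 0.505 and 0.209).

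Genes numbered next to each locus were examined because genes of one nitrogen pathway lie side by side in some fungi. The files do not give a contig, so adjacent numbers are taken only as table order. Of 40 loci within 5 numbers of a described gene, 37 were tested. On glucose 19 rose and 13 fell, and on xylose 16 rose and 16 fell, beside the shares for all genes given above. No neighbour was a purine or urea gene of the lists.

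Next to the purine permease PHBOTO_003947, the hypothetical protein PHBOTO_003946 rose from 0.878 ± 0.27 to 1078 ± 145 CPM on glucose and from 1.15 ± 0.447 to 999 ± 81.1 CPM on xylose (SD, n = 3). Its log2 fold changes were 10.20 ± 0.23 and 9.75 ± 0.23 (edgeR adjusted p = 1.28e-15 and 2.52e-15). PHBOTO_003944, 3 numbers away and annotated with an Fe2OG dioxygenase domain, rose by 8.08 ± 0.18 and 8.25 ± 0.18 (edgeR adjusted p = 9.79e-16 and 1.36e-15). On the other side, the lysine permease lyp1 fell from 281 ± 21.9 to 22.8 ± 2.29 CPM on glucose and from 471 ± 39.2 to 21.9 ± 5.31 CPM on xylose (SD, n = 3), with log2 fold changes of -3.62 and -4.43 (edgeR adjusted p = 1.75e-12 and 2.93e-13).

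Near dal5_3, the aspartic proteinase yps1, 5 numbers away, rose by 8.55 ± 0.15 on glucose and 8.98 ± 0.15 on xylose (edgeR adjusted p = 9.5e-17 and 1.79e-16). The amino acid transporter PHBOTO_000798, 4 numbers away, rose by 2.24 ± 0.12 on glucose (edgeR adjusted p = 4.1e-11) and fell by 1.01 on xylose (edgeR adjusted p = 1.44e-06). Closer to dal5_3 lay PHBOTO_000795, annotated as a tRNA-splicing endonuclease, and the C6 transcription factor PHBOTO_000796, which fell in starvation on xylose with log2 fold changes of -6.11 and -2.16 (edgeR adjusted p = 1.05e-05 and 5.27e-05). In exponential growth both were higher on xylose than on glucose, by 4.42 ± 0.71 and 2.92 ± 0.38 (edgeR adjusted p = 0.000248 and 3.5e-05), as dur3_2 was. Levels were low, 3.63 ± 1.09 CPM for the former and 22.4 ± 3.65 CPM for the latter in exponential growth on xylose (SD, n = 3). Without starved xylose replicate C the fall of PHBOTO_000795 was -6.86. In starvation on glucose PHBOTO_000795 stood at 0.59 ± 1.00 (edgeR adjusted p = 0.594), or at -5.08 without starved glucose replicate C (edgeR adjusted p = 0.0267), and PHBOTO_000796 at 0.69 ± 0.40 (edgeR adjusted p = 0.122), or at -0.12 without starved glucose replicate B. The tRNA-Lys locus PHBOTO_000799 rose on glucose by 3.0 ± 0.74 (edgeR adjusted p = 0.00144), or by 2.14 without starved glucose replicate A, and stood at -0.08 ± 0.81 on xylose (edgeR adjusted p = 0.929), or at -1.38 without starved xylose replicate C. Its group means were 2.55 ± 2.06 CPM or less (SD, n = 3). The poly-A libraries were made for mRNA, so these few reads are not taken as a tRNA level.

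Beside urate oxidase only ypl109c, a mitochondrial ABC1 family protein, and the hypothetical protein PHBOTO_000158 passed a log2 change of 2 with a call. The former rose by 2.02 ± 0.09 on glucose (edgeR adjusted p = 3.39e-12), and the latter fell by 2.18 (edgeR adjusted p = 1.16e-07). Beside dur3_2 the ornithine monooxygenase PHBOTO_002615, of a class that begins siderophore synthesis, rose by 3.58 ± 0.32 on glucose and 2.48 ± 0.30 on xylose (edgeR adjusted p = 3.13e-08 and 1.21e-06), opposite to dur3_2.

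**Figure D5:**
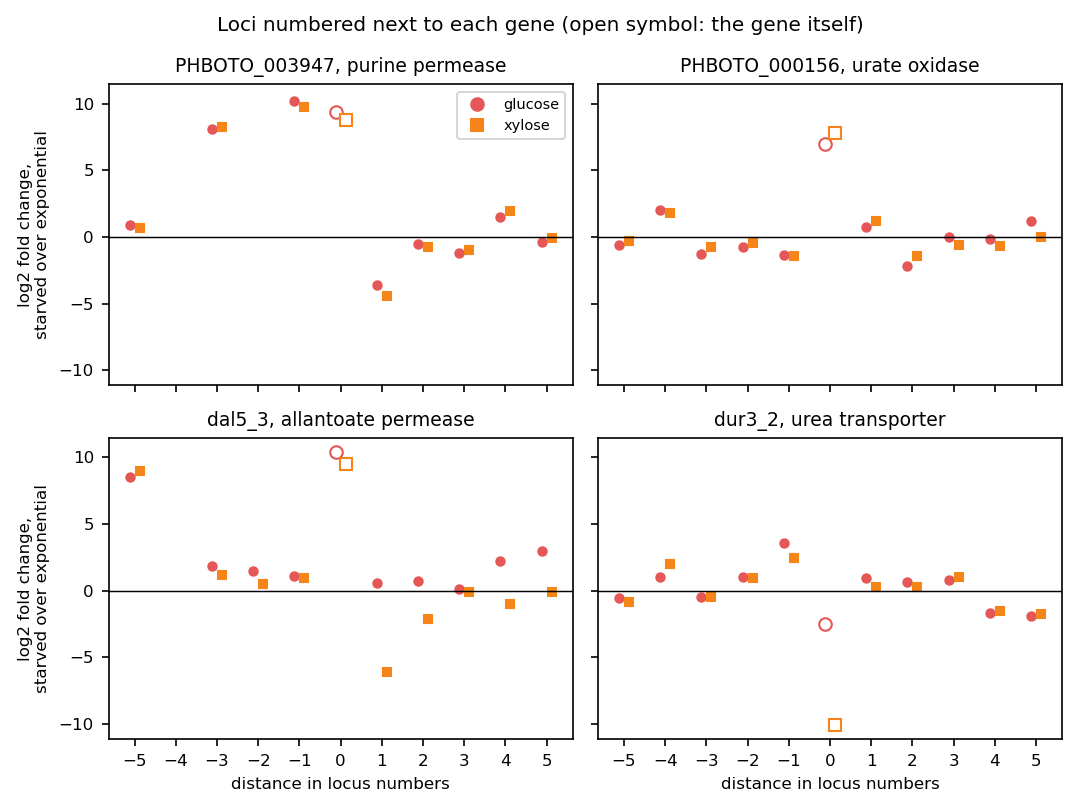
Log2 fold change of starved over exponential cultures for each described gene (open symbols at 0) and the tested loci within 5 locus numbers, on glucose and on xylose. PHBOTO_003946 and PHBOTO_003944 lie near the purine permease, at 10.20 and 8.08 beside 9.39 on glucose, and lyp1 lies at -3.62.

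The genes with the most similar pattern were found by the root mean square difference of log2 CPM over the 12 libraries, each gene centred on its own mean. For the purine permease PHBOTO_003947 the nearest was the other purine permease PHBOTO_000775 (0.213 log2 units), followed by the hypothetical protein PHBOTO_004074 (0.344), yps1 (0.398), the acid phosphatase pho3_2 (0.423) and PHBOTO_001596 (0.454). For urate oxidase the nearest were the FHA domain protein PHBOTO_000338 (0.334), PHBOTO_004276 (0.347), PHBOTO_003970 (0.362), the mitochondrial dicarboxylate transporter dic1_2 (0.405) and PHBOTO_002763 (0.405). For dal5_3 they were PHBOTO_004074 (0.428), PHBOTO_003946 (0.501), the guanyl-specific ribonuclease PHBOTO_001690 (0.518), the purine permease PHBOTO_003947 itself (0.533) and pet9_2 (0.542). The genes nearest to dur3_2 were farther off, with yil166c at 1.70, PHBOTO_003559 at 1.89 and PHBOTO_002943 at 2.13. PHBOTO_000795 came next at 2.34, and PHBOTO_002942 at 2.37. Like dur3_2, yil166c, PHBOTO_003559 and PHBOTO_002943 were highest in exponential growth on xylose, at 974 ± 258, 995 ± 167 and 571 ± 80.6 CPM (SD, n = 3). The starved libraries held 1 to 19 counts of dur3_2, and log2 values at such counts vary widely, which enters its distances. Between dur3_2 and the other 3 described genes the measure was 7.71 to 8.75. These distances all share the same 12 libraries and carry no test.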

How the data were processed

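Poly-A RNA was sequenced in 12 libraries, and the deposited table was used as it stands. The count columns are raw read counts per locus, per the file headers. The signal columns are deposited normalized counts, which are the counts scaled by a single size factor for each library (checked; present for 5877 loci and absent for 812). The log2 columns are the authors' log2 fold changes, per the file headers. Per the submitters' processing notes, tools included bcl2fastq 2.20.0.422, CASAVA, Trim Galore 0.6.1, cutadapt 2.3, HISAT2 2.2.1 and DESeq2. The read counter, strand setting and genome build are not given in the sources used. Libraries are stranded, per the labels' protocols.

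Counts were fitted in edgeR 4.0.16 (R 4.3.3) over all 12 libraries with 1 coefficient per group, after filterByExpr (minimum count 10, minimum total 15) and TMM scaling. Quasi-likelihood F tests with 8 residual degrees of freedom were adjusted by Benjamini-Hochberg over the 5805 tested genes, and calls required an adjusted p below 0.05. "edgeR adjusted p" means this value. The SE is approximate, |log2 fold change| over the root of the F statistic. The likeness measure used log2 CPM with a prior count of 0.5. The fit was also run on simulated data in which few genes changed, by small factors and in the starved glucose group only. That check does not cover the many and large changes of these data.

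The 4 genes and all lists were chosen with earlier results of these data known. Named genes were the called list genes with the largest starvation changes (at most 8 per pathway list, 4 per other list), list genes of at least 100 CPM, called neighbours with an absolute log2 change of at least 2, and the 5 most alike genes per described gene. A few weaker list genes were named after their values were seen. Gene names are those of the table's own annotation column. Replicate letters were not taken as pairs, because the labels do not say whether a letter marks the same culture at both time points. Alternatives were DESeq2 1.42.0, other scalings, no filter, only the groups compared, a replicate block and leaving out each library. A list without 3 misfiled names was added after seeing the data.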

Additional observations from a re-analysis of the deposited data

Results flagged for a closer look

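For 14 of the 29 other pathway genes, the change in starvation differed between xylose and glucose by a test of the difference itself (edgeR quasi-likelihood, Benjamini-Hochberg adjusted over all genes). The values are log2 fold changes on xylose minus those on glucose, with 3 biological replicates per group. Over all tested genes 21.7% were called with a positive and 16.5% with a negative difference.

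Among transport genes the differences were -2.06 for the urea transporter dur3 (edgeR adjusted p = 5.95e-06), -1.72 for the allantoate permease dal5 (edgeR adjusted p = 3.82e-08), -1.37 for the uracil permease fur4 (edgeR adjusted p = 6.66e-05) and -0.78 for the allantoin permease dal4 (edgeR adjusted p = 5.17e-05). The nucleoside transporter fun26 stood at -0.36 (edgeR adjusted p = 0.0433), a call lost without any 1 of 9 libraries (edgeR adjusted p from 0.0507 to 0.0938). The allantoate permease copy dal5_4 stood at 0.66 (edgeR adjusted p = 0.000675).

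Of the enzyme genes, those called had differences of 1.06 for the allantoicase dal2 (edgeR adjusted p = 0.00307), 1.05 for the xanthine phosphoribosyltransferase xpt1 (edgeR adjusted p = 0.000167), 0.99 for the arginase car1 (edgeR adjusted p = 0.000172) and 0.88 for the nucleoside phosphorylase pnp1 (edgeR adjusted p = 0.00218). They were 0.85 for the uridine nucleosidase urh1_2 (edgeR adjusted p = 0.000808) and 0.66 for the adenine deaminase copy aah1_2 (edgeR adjusted p = 0.0032). The hydrolase PHBOTO_001709 stood at 0.47 (edgeR adjusted p = 0.0163), lost without exponential glucose replicate B or starved xylose replicate A (edgeR adjusted p = 0.0587 and 0.0511), and the tRNA deaminase tad1 at 0.47 (edgeR adjusted p = 0.0392), lost without any 1 of 8 libraries (edgeR adjusted p from 0.0628 to 0.124). Other enzyme and accessory genes had values below 0 that were not called, -1.14 for UreD (PHBOTO_004571), -1.02 for dur12_2, -0.35 for UreF (PHBOTO_001179), -0.28 for gud1 and -0.15 for dur12_3. The arginase copy car1_2 stood at -0.35 (edgeR adjusted p = 0.0618) and passed the threshold in DESeq2 (adjusted p = 0.0499) and without starved glucose replicate B or starved xylose replicate C (edgeR adjusted p = 0.0364 and 0.0279), so no split between transport and enzyme genes is drawn.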

How the results depend on the processing

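Starvation differences of the 4 described genes kept their direction under every alternative run, and the counts of other pathway genes called in starvation stayed within 1.5 times the values given. The exceptions lie between the sugars. Fitting only the groups compared moved all calls between the exponential sugars from 1203 to 2458 and between the starved sugars from 2446 to 1613. It moved the pathway genes lower on xylose from 4 to 9 in exponential growth and from 4 to 1 in starvation. In those fits 6 libraries set the spread, and the cause was not tested otherwise. Leaving out 1 library at a time gave 791 to 1528 calls between the exponential sugars and 2130 to 2752 between the starved ones. It gave 3 to 7 pathway genes lower on exponential xylose and 1 to 4 on starved xylose. The log2 difference between the starved sugars ran from -0.01 to 0.20 for PHBOTO_000156 and from -0.38 to 1.11 for dur3_2, with -0.15 without starved glucose replicate A. With few reads for dur3_2 in starved libraries, depth limits that comparison, and the fit of the starved groups alone filtered it out. With a replicate block by letter, 4691 genes were called in starvation on glucose and 4696 on xylose (4714 and 4717 without), and no count of pathway genes moved by over 1.5 times. Correlations between same-letter libraries ran from -0.12 to 0.171, so the letters do not establish pairs.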

Other observations

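The uracil and pyrimidine genes on a separate list also rose in starvation, 4 of 4 on glucose (median log2 fold change 2.46) and 3 of 4 on xylose (median 4.25). Over all tested genes 40.1% were called higher on glucose and 40.6% on xylose. The uracil phosphoribosyltransferase copy fur1_2, which salvages uracil, rose from 34.8 ± 1.68 to 1388 ± 697 CPM on glucose and from 26.5 ± 2.22 to 2581 ± 232 CPM on xylose (SD, n = 3). Its log2 fold changes were 5.31 ± 0.29 and 6.60 ± 0.30 (edgeR adjusted p = 4.45e-11 and 6.84e-12). The other copy, fur1, rose by 1.73 ± 0.23 and 3.27 ± 0.24 (edgeR adjusted p = 3.14e-06 and 2.67e-09). The uridine phosphorylase PHBOTO_003764 rose by 3.19 ± 0.28 on glucose and 5.23 ± 0.31 on xylose (edgeR adjusted p = 2.15e-08 and 1.38e-10). The cytidine deaminase cdd1 rose on glucose by 1.14 ± 0.33 (edgeR adjusted p = 0.00481), a call lost without starved glucose replicate C (0.61, edgeR adjusted p = 0.0564), and stood at 0.56 ± 0.32 on xylose (edgeR adjusted p = 0.119).

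Of 7 ammonium transport genes, 4 rose on each sugar, 2 fell on glucose and 3 on xylose. Over all tested genes 40.1% rose and 41.1% fell on glucose, and 40.6% rose and 40.6% fell on xylose. The counts alone are therefore not read further. The ammonium transporter mep2 rose from 257 ± 16.0 to 3320.0 ± 44.1 CPM on glucose and from 633 ± 27.0 to 3722 ± 238 CPM on xylose (SD, n = 3), by 3.69 ± 0.09 and 2.56 ± 0.09 on the log2 scale (edgeR adjusted p = 5.05e-15 and 3.09e-13). The related mep3 fell, with log2 fold changes of -0.99 and -1.34 (edgeR adjusted p = 3.65e-09 and 7.75e-11). The low affinity ammonium transporter amf1 rose by 1.44 ± 0.17 and 2.59 ± 0.17 (edgeR adjusted p = 7.36e-07 and 7.88e-10). The copy ato_2 rose by 3.67 ± 1.01 and 3.59 ± 1.00 (edgeR adjusted p = 0.0033 and 0.00348), on at most 44 counts in any group. Of 10 tested loci matched as nitrogen regulators, 5 rose and 1 fell on glucose, and 6 rose and 4 fell on xylose. These counts stand beside the same shares of all genes, include nit2 (below) and are not read further. The URE2 regulator copy ure2_3 rose by 2.42 ± 0.10 and 2.12 ± 0.10 (edgeR adjusted p = 1.64e-12 and 8.31e-12). The copy ure2_2 rose by 1.24 ± 0.16 and 0.58 ± 0.16 (edgeR adjusted p = 2.92e-06 and 0.00367). The NmrA domain protein PHBOTO_000457 fell, with -0.95 and -0.98 (edgeR adjusted p = 8.65e-09 and 5.92e-09). The GATA factor gat1, an activator of nitrogen genes in Saccharomyces cerevisiae, rose by less, 0.71 ± 0.08 and 0.81 ± 0.08 (edgeR adjusted p = 4.03e-07 and 8.6e-08). That list also caught nit2, an amidase for deaminated glutathione and not a regulator, which rose by 5.39 ± 0.11 and 4.14 ± 0.11 (edgeR adjusted p = 6.37e-16 and 9.32e-15).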
